A study of Mus musculus with 2 samples.

Results

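The MHC class I presentation genes are 10 named genes of the 32285 genes in the deposited matrix, and each symbol matched 1 gene identifier: H2-K1, H2-D1, B2m, Tap1, Tap2, Tapbp, Psmb8, Psmb9, Psmb10 and Nlrc5. They were listed by name, by a rule that uses no measured value, though earlier results of these data were known when they were chosen. Their unique molecular identifiers (UMIs, 1 per captured transcript) were summed per condition and per cell class from 10x 3' single-cell RNA sequencing. The cells were CD45+ leukocytes, which a cell sorter collected from full-thickness mouse skin after digestion with Liberase. One condition is labelled DPCP day 2, where DPCP is taken to be diphenylcyclopropenone, a contact sensitizer that provokes an allergic skin reaction, and the other is control day 0. The conditions were tagged with multiplexing oligos and pooled in 1 library, 1 tagged sample each. Cells are not replicates, so no test between conditions was possible, and the 95% intervals below allow for counting error and nothing else. The labels do not name the strain, the sex, the dose or how many mice stand behind a tag.

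MHC class I molecules display peptides from inside a cell to CD8+ T cells. Proteasomes cut proteins into peptides, the transporter made of Tap1 and Tap2 carries peptides into the endoplasmic reticulum, and tapasin (Tapbp) holds empty class I molecules at the transporter until a peptide is loaded. A class I molecule is a heavy chain, such as H2-K1 or H2-D1, bound to beta-2 microglobulin (B2m). Psmb8, Psmb9 and Psmb10 are the inducible catalytic subunits that take the places of Psmb5, Psmb6 and Psmb7 in the immunoproteasome. Nlrc5 is the transactivator of class I genes, and interferons are known inducers of the whole group. Skin holds Langerhans cells, the dendritic cells of the epidermis, beside dermal dendritic cells, macrophages and resident T cells, and neutrophils and monocytes enter it during contact hypersensitivity.

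In the GENCODE M21 annotation of mm10, 7 of the 10 genes lie on chromosome 17 within 1352 kb, from Tapbp at chr17:33915899-33929292 to H2-D1 at chr17:35262730-35267499, both on the plus strand. H2-K1 lies at chr17:33996017-34000347 on the minus strand. Psmb9, Tap1, Psmb8 and Tap2 fill 34.3 kb of that stretch (chr17:34181987-34216321). B2m lies at chr2:122147686-122153083 on the plus strand, and Psmb10 (chr8:105935735-105938444, minus strand) and Nlrc5 (chr8:94434356-94527272, plus strand) lie on chromosome 8. RefSeq promoter windows on GRCm38.p6, each from 250 bases before to 50 after a start site, were matched for 8 of the 10 genes, all but Tap2 and Nlrc5. The start sites of Tap1 and Psmb9 are 226 bases apart and point away from each other, so their windows share 275 bases. The windows of the heavy chains and B2m are shown because these genes were lower together in 5 of the 7 named classes below. In neutrophil-like, macrophage-like and conventional dendritic cell type 2-like cells this did not hold under every alternative. Capitals mark the motif found in each window.
H2-K1, chr17:34000298-34000597, minus strand: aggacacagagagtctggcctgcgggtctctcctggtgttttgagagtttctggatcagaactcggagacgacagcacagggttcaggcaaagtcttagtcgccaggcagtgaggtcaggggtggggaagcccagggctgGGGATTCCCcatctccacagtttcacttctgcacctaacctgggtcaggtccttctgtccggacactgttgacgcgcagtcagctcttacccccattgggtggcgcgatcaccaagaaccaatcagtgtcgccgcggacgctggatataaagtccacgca
H2-D1, chr17:35262844-35263143, plus strand: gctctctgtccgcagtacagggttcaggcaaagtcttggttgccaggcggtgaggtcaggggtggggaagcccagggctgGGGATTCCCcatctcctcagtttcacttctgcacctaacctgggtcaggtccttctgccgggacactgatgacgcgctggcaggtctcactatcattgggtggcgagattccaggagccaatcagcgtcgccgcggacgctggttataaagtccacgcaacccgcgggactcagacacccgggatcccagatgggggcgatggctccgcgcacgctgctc
B2m, chr2:122147437-122147736, plus strand: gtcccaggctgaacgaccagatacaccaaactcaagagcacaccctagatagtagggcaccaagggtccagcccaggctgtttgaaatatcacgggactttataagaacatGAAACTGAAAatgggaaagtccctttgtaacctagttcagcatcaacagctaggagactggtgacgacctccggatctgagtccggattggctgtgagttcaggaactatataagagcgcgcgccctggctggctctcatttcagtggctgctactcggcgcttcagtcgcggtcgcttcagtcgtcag

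The motif searches covered both strands. The class I kappaB site (GGGATTCCC) was in the H2-K1 window at bases -110 to -102 and in the H2-D1 window at -170 to -162, counted from the start site, and 0.37% of 27025 promoter windows held it. It lies inside the longest identical stretch of the heavy-chain windows, 47 bases. The interferon-stimulated response element core (GAAA, any 2 bases, then GAAA) was in the B2m window at -139 to -130 and in 3.49% of all windows. The interferon-gamma-activated site (TTCNNNGAA) was in the Psmb8 window at -97 to -89 and in 8.47% of all windows. Tap1, Tapbp, Psmb9 and Psmb10 had none of these motifs in their windows, no window held more than 1 of them, and a match is a description of letters, not a measured binding site. Only these exact patterns were searched. A window without a match, those of H2-K1 and H2-D1 included, may therefore hold another form of an interferon element. The last 500 bases of each gene's longest coding transcript held no stretch of 90 bases found in another gene's annotated transcripts.

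After filtering, 7588 DPCP cells and 4967 control cells held 53121083 and 51779148 UMIs, with medians of 4728.5 UMIs per DPCP cell and 8797.0 per control cell. Clusters were made without the 10 genes among the variable genes and named from fixed markers with the ending -like. Comparison needed at least 50 cells per condition, which gave neutrophil-like (4901 DPCP and 108 control cells), monocyte-like (761 and 199), macrophage-like (244 and 321), conventional dendritic cell type 2-like (142 and 676), mature dendritic cell-like (122 and 58), Langerhans cell-like (124 and 55) and gamma-delta T cell-like cells of the epidermal type (296 and 222). The unnamed clusters 0 (126 and 1741 cells, led by Thsd4 and Tenm4), 11 (62 and 317, led by Otof and Ear2), 13 (143 and 156, holding T cell and natural killer cell markers alike) and 14 (107 and 94, led by Cd300e and Ace) were compared by number. Neutrophil RNA outside neutrophils was higher in DPCP cells. S100a8 and S100a9 together were at 13846 CPM (defined below) in DPCP and 500 CPM in control gamma-delta T cell-like cells. In Langerhans cell-like cells they were at 3355 and 1386 CPM. Cells with over 20 of these UMIs were taken to hold neutrophil RNA. These were 28.4% of DPCP and 0% of control gamma-delta T cell-like cells, and 14.5% and 1.82% of Langerhans cell-like cells. The limit was a high quantile of control cells outside neutrophil-like cells, so control shares were low by design. In the DPCP barcodes, 13.9% of tag UMIs were of the other condition's tag, against 2.18% in control barcodes. Conditions shared no barcode sequence. Ptprc, the gene of the sorted marker CD45, had a UMI in 96.3% of DPCP and 98.8% of control cells. Fewer cells that express a gene and less RNA per cell cannot be told apart in the summed values.

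Levels are given as CPM, in which every sum of cells is brought to the same UMI total, so they are shares of the RNA captured and not amounts per cell. In DPCP skin H2-K1 was highest in cluster 13 (1524 CPM), followed by mature dendritic cell-like (1315), cluster 14 (1268), macrophage-like (1205), gamma-delta T cell-like (1063), cluster 11 (940), cluster 0 (837), conventional dendritic cell type 2-like (795), monocyte-like (703), Langerhans cell-like (627) and neutrophil-like cells (580). Intervals of neighbours overlapped from mature dendritic cell-like cells to macrophage-like cells and from gamma-delta T cell-like to conventional dendritic cell type 2-like cells. In control skin the order was mature dendritic cell-like (2141 CPM), cluster 14 (1722), cluster 13 (1545), macrophage-like (1363), neutrophil-like (1247), monocyte-like (1234), cluster 11 (1115), gamma-delta T cell-like (1090), conventional dendritic cell type 2-like (1005), cluster 0 (764) and Langerhans cell-like cells (466). There the intervals overlapped from macrophage-like to monocyte-like cells and between cluster 11 and gamma-delta T cell-like cells. Neutrophil-like cells were thus last in DPCP skin, and Langerhans cell-like cells were last in control skin. B2m was highest in cluster 14 (3152 CPM) in DPCP skin and in mature dendritic cell-like cells (3771 CPM) in control skin, where the interval overlapped that of cluster 14 (3530 CPM), and Langerhans cell-like cells had the lowest control level (1050 CPM). Nlrc5 was highest in mature dendritic cell-like cells in both conditions, at 176 CPM in DPCP and 339 CPM in control skin, but in DPCP its interval (158 to 195) overlapped that of cluster 13 (141 CPM, 123 to 160). The levels by class show that the intervals of the heavy chains and B2m are narrow in most classes and those of Nlrc5 are wide where few UMIs were counted.

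**Figure D1:**
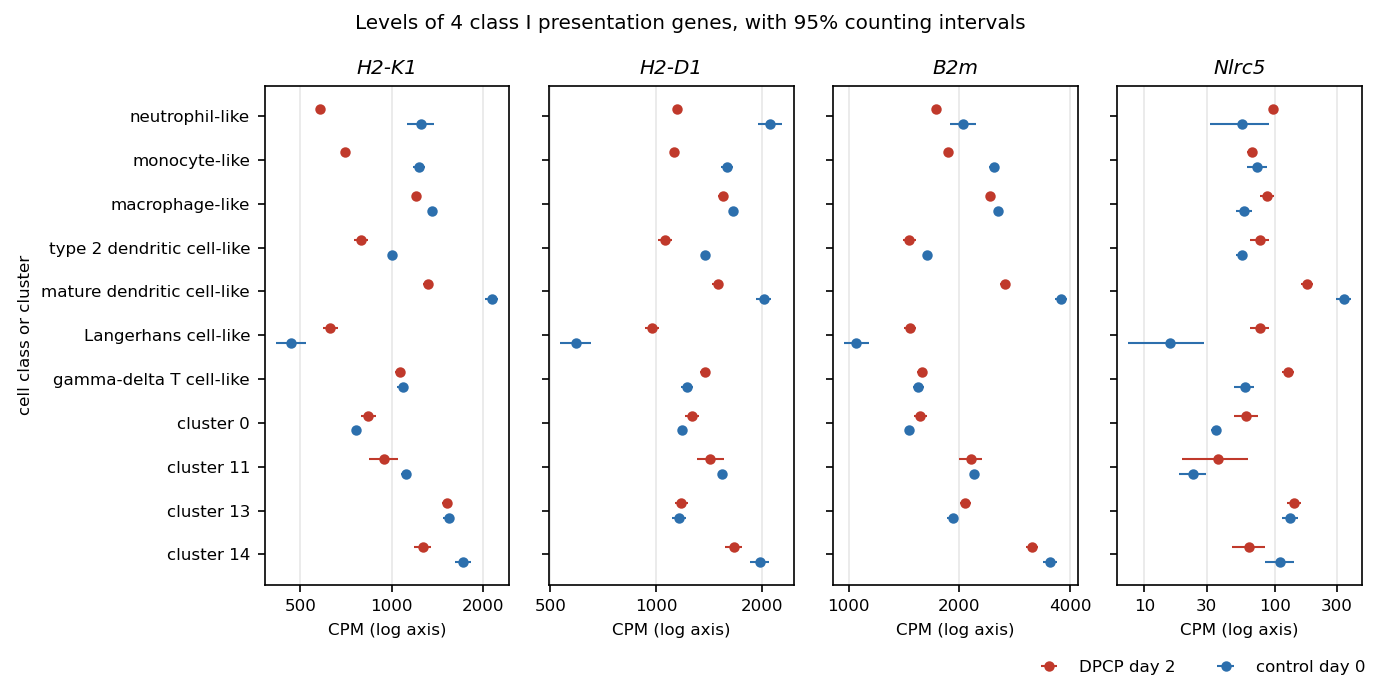
Levels of H2-K1, H2-D1, B2m and Nlrc5 in CPM (log axis) in each class or cluster, DPCP (red) above control (blue), with 95% counting intervals as bars. H2-K1 is lower in DPCP in neutrophil-like (580 against 1247 CPM), monocyte-like and mature dendritic cell-like cells, and Langerhans cell-like cells have the lowest control level of each gene.

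Over all kept cells, H2-K1 was at 786 CPM in DPCP and 1226 CPM in control cells (ratio DPCP over control 0.641, 0.633 to 0.649), and Psmb10 at 61.4 CPM in DPCP and 92.3 CPM in control cells (0.665, 0.636 to 0.696). These were the 2 genes lower by at least 1.5-fold, the fixed fold that stands in for a test here, and 25.6% of 14376 genes with at least 50 summed UMIs were lower by that fold. None of the 10 was higher by it, against 21.1% of all genes, and Nlrc5 came closest at 92.0 CPM in DPCP and 62.3 CPM in control cells (1.48, 1.41 to 1.54). The median log2 ratio of the 10 genes was -0.18 and that of all genes -0.17. These ratios mix levels within classes with the cell make-up, since neutrophil-like cells were 4901 of the DPCP cells and 108 of the control cells. With each of 21 clusters weighted by its share of control UMIs, the ratio was 0.765 for H2-K1, 0.854 for H2-D1, 0.844 for B2m, 0.999 for Psmb10 and 1.32 for Nlrc5.

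**Figure D2:**
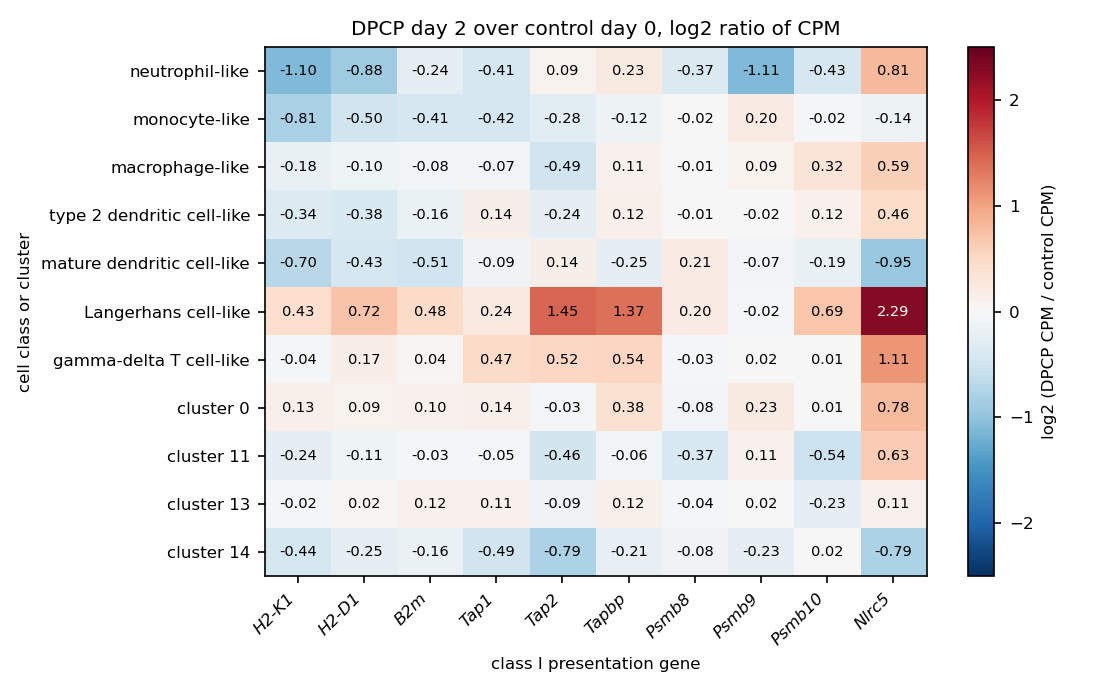
The log2 ratio of CPM, DPCP over control, of the 10 genes (columns) in 7 named classes and 4 unnamed clusters (rows). Langerhans cell-like cells have the highest value (Nlrc5, 2.29), and H2-K1 is lowest in neutrophil-like cells (-1.10).

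Within classes, the direction of the 10 genes differed. Over the 7 named classes, 8 gene-by-class ratios were higher in DPCP by 1.5-fold, of which 5 were in Langerhans cell-like cells, and 6 were lower, of which 3 were in neutrophil-like cells. That is 11.4% higher and 8.57% lower of 70 ratios, both below the 14.6% and 15.9% of 59924 such ratios over all genes. Nlrc5 was past that fold most often: it was higher in 4 named classes and lower in 1. The map of log2 ratios shows these values for every class.

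In Langerhans cell-like cells, 9 of the 10 ratios were above 1 and the heavy chains, B2m, Tap2, Tapbp, Psmb10 and Nlrc5 were higher in DPCP than in control skin beyond counting error. Nlrc5 was at 76.7 CPM in DPCP (142 UMIs) and 15.7 CPM in control cells (10 UMIs), a ratio of 4.89 (2.58 to 10.4). Tap2 was at 94.6 CPM in DPCP and 34.5 CPM in control cells (2.74, 1.75 to 4.48), and Tapbp at 362 and 140 CPM (2.59, 2.08 to 3.27). H2-D1 was at 972 CPM in DPCP and 590 CPM in control cells (1.65, 1.47 to 1.85), H2-K1 at 627 and 466 CPM (1.35, 1.18 to 1.53) and B2m at 1466 and 1050 CPM (1.40, 1.28 to 1.52). With Psmb10 (1.61, 1.04 to 2.59; log2 0.54, short of that fold, under the stricter cell filter), 5 of the 10 genes were higher by 1.5-fold and 0 lower, against 25.3% higher and 17.5% lower of 6912 genes. The ratios of Tap1 (1.18), Psmb8 (1.15) and Psmb9 (0.983) had intervals that include 1. The median log2 ratio was 0.58, beside 0.11 for all genes, and the median percentage of a cell's UMIs from the 10 genes was 0.364% in DPCP and 0.239% in control cells.

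The class was named from 3 of 5 Langerhans cell markers, while 4 of the 8 macrophage markers, a larger number but a smaller part of their list, passed the same rule. Its DPCP and control cells were not alike in these markers. Of the 8 macrophage markers none was at 0 in either condition, and their summed level was 3911 CPM in DPCP and 967 CPM in control cells. C1qa, a complement component of macrophages, was at 1193 CPM in DPCP and 185 CPM in control cells. Of the Langerhans cell markers, Cd207 (langerin) was at 505 CPM in DPCP and 633 CPM in control cells, and Epcam at 217 and 663 CPM. In the 34 DPCP and 42 control cells with at most 3 UMIs of C1qa, C1qb and C1qc, a limit chosen after seeing these values, 7 of the 10 genes had 50 summed UMIs, 2 were higher by 1.5-fold (H2-D1 1.81, Tapbp 1.88) and 1 was lower (Tap1 0.523). Of 3910 genes, 26.8% were higher and 17.6% lower by that fold in those cells. Epcam was at 230 CPM in DPCP and 692 CPM in control cells there, and the macrophage markers had no common direction, with Mrc1 at 199 and 94.9 CPM and Adgre1 at 214 and 391 CPM. The neutrophil marker S100a8 was at 3737 CPM in DPCP and 1013 CPM in control cells there, against 1678 and 771 CPM in the whole class. The part of neutrophil RNA in these ratios was not tested. In those cells H2-K1 was at 614 CPM in DPCP and 436 CPM in control cells (1.41, 1.17 to 1.70). Nlrc5 was at 41.1 and 13.6 CPM (3.03, 1.17 to 9.22), but on 20 and 6 UMIs, short of 50 summed UMIs. Psmb10 there was at 34.9 CPM in DPCP and 42.9 CPM in control cells (0.813, 0.397 to 1.65). Thus the heavy chains, B2m (1.26, 1.10 to 1.43), Tapbp and Nlrc5 were also higher among cells with few C1q UMIs, while the ratios of Tap1 and the 3 inducible proteasome subunits were below 1. The part of the macrophage markers in the other ratios was not tested.

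MHC class II genes had the other direction in Langerhans cell-like cells: 7 of 7 were lower in DPCP by 1.5-fold, with a median log2 ratio of -1.67, against 17.5% of all genes. Ciita, the class II transactivator and a relative of Nlrc5, was at 83.2 CPM in DPCP and 408 CPM in control cells (0.204, 0.166 to 0.25), and Cd74, the invariant chain, at 5457 and 13304 CPM (0.410, 0.398 to 0.422). In the cells with few C1q UMIs, Ciita was at 117 CPM in DPCP and 432 CPM in control cells (0.271, 0.198 to 0.366). The list was also lower in 7 of 7 genes in gamma-delta T cell-like cells (median -1.97, against 11.6% of all genes) and cluster 13 (median -1.98, against 9.71%), and in 0 of 7 in macrophage-like (against 8.03%) and conventional dendritic cell type 2-like cells (against 12.6%). Whether the class II UMIs in gamma-delta T cell-like cells and cluster 13 were those cells' own RNA was not tested.

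**Figure D3:**
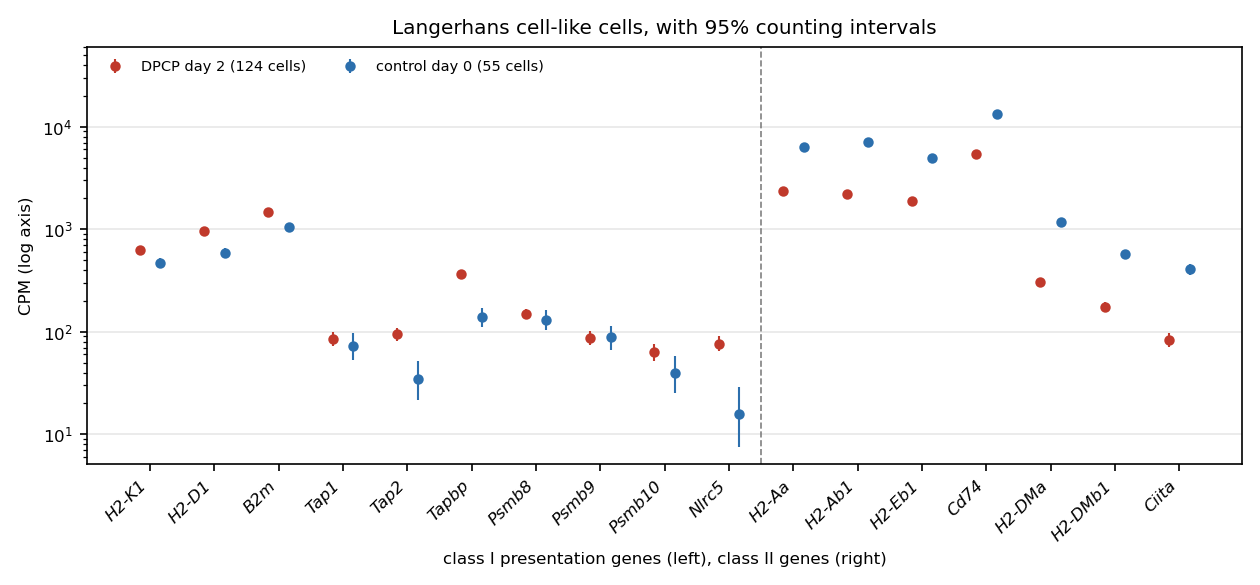
Langerhans cell-like cells: CPM (log axis) of the 10 class I presentation genes (left of the dashed line) and 7 class II genes (right), DPCP (red) left of control (blue), with 95% counting intervals. All class II genes are lower in DPCP, for example Ciita at 83.2 against 408 CPM, and Nlrc5 is higher at 76.7 against 15.7 CPM.

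Neutrophil-like cells had lower heavy chains in DPCP than in control skin. H2-K1 was at 580 CPM in DPCP and 1247 CPM in control cells (0.466, 0.419 to 0.518), H2-D1 at 1144 and 2111 CPM (0.542, 0.50 to 0.588) and Psmb9 at 58.1 and 125 CPM (0.464, 0.333 to 0.665). B2m was at 1726 CPM in DPCP and 2045 CPM in control cells (0.844, 0.778 to 0.918), but its log2 ratio turned to 0.10 with TMM scaling. The count was 3 of 10 lower by 1.5-fold, against 36.6% of 10113 genes, and 1 higher, against 18.0%. The median log2 ratio was -0.39, and that of all genes -0.29. TMM scaling, which sets sums on the bulk of their genes, moved all log2 ratios up by 0.34 in this class, which left H2-K1 at -0.76 and H2-D1 at -0.54. It moved those of monocyte-like cells by 0.10, those of cluster 11 by -0.12 and those of the other classes by less than 0.1. The control cells were few, with 287083 UMIs in all. These calls did not hold in 1 alternative. When cells were chosen by their own marker UMIs, which gave 5177 DPCP and 549 control cells, the log2 ratios were -0.57 for H2-K1, -0.16 for H2-D1 and -0.01 for Psmb9, each short of 1.5-fold, and 0.04 for B2m. H2-D1 was also short of it with TMM scaling.

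The neutrophil-like class was made of 5 clusters, and 104 of its 108 control cells were in cluster 2, which held 1069 of the 4901 DPCP cells. Within cluster 2, H2-K1 was at 551 CPM in DPCP and 1268 CPM in control cells (0.434, 0.387 to 0.488), and H2-D1 at 1373 and 2150 CPM (0.639, 0.586 to 0.697). Nlrc5 was the 1 gene of the class higher by 1.5-fold (97.6 CPM in DPCP and 55.7 CPM in control cells on 16 control UMIs, ratio 1.75, 1.08 to 3.07), but within cluster 2 it was at 33.0 and 58.6 CPM (0.563, 0.333 to 1.02), and at resolution 2 its log2 ratio, 0.57, was short of that fold. Among DPCP cells, Nlrc5 was at 170 CPM in cluster 1, 131 in cluster 3, 87.2 in cluster 10, 33.0 in cluster 2 and 18.4 in cluster 7. Cluster 7 was led by Retnlg, Ly6g and Ngp, a neutrophil granule protein gene, and also had the lowest H2-K1 (384 CPM), Tap1 (65.2 CPM) and Psmb10 (9.51 CPM) of these clusters. Cluster 1 had the highest H2-K1 (794 CPM), B2m (2273 CPM), Tap2 (148 CPM) and Tapbp (430 CPM), but a lower H2-D1 (1061 CPM) than cluster 7 (1367 CPM).

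**Figure D4:**
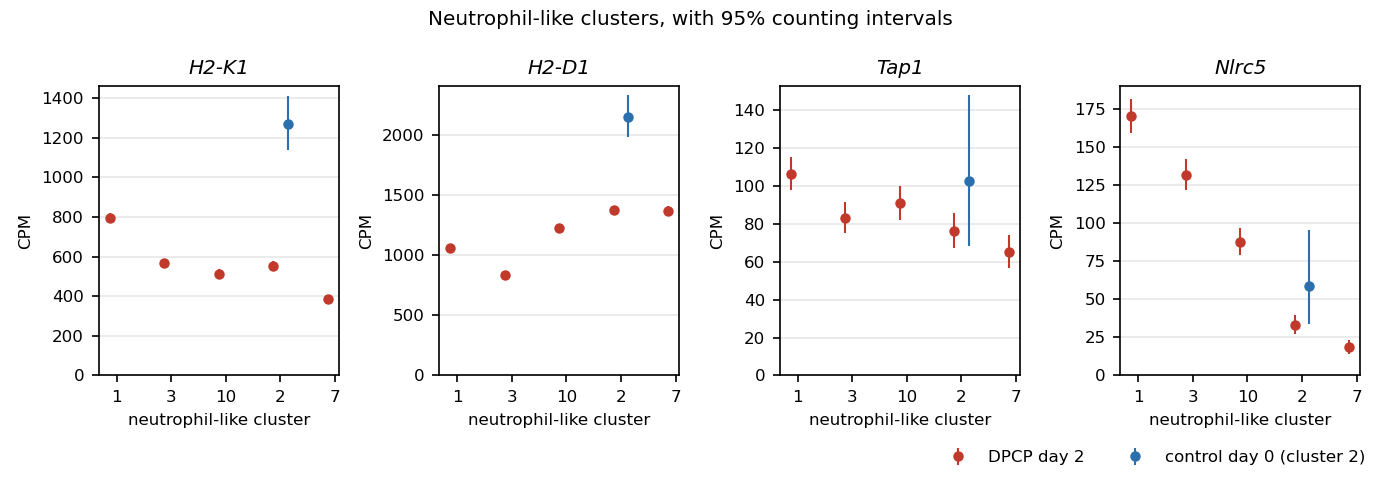
CPM of H2-K1, H2-D1, Tap1 and Nlrc5 in the DPCP cells (red) of 5 neutrophil-like clusters and the control cells (blue) of cluster 2, with 95% counting intervals. Nlrc5 in DPCP cells runs from 170 CPM in cluster 1 to 18.4 CPM in cluster 7, and the control cells of cluster 2 have the highest H2-K1 (1268 CPM).

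Monocyte-like cells had 1 of 10 genes lower by 1.5-fold, H2-K1 at 703 CPM in DPCP and 1234 CPM in control cells (0.570, 0.542 to 0.599), against 11.1% of 9345 genes. None was higher, against 10.4%. H2-D1 was at 1123 CPM in DPCP and 1592 CPM in control cells (0.706, 0.676 to 0.737), B2m at 1865 and 2487 CPM (0.750, 0.725 to 0.776) and Tap1 at 101 and 135 CPM (0.748, 0.646 to 0.870). The proteasome subunits were close to 1, with ratios of 0.989 for Psmb8, 1.15 for Psmb9 and 0.986 for Psmb10. The median log2 ratio was -0.21, and -0.03 for all genes.

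Mature dendritic cell-like cells, which carry Ccr7 and Fscn1, had the highest control levels of H2-K1 and B2m among the classes compared, and lower ones in DPCP. H2-K1 was at 1315 CPM in DPCP and 2141 CPM in control cells (0.614, 0.577 to 0.654), B2m at 2656 and 3771 CPM (0.704, 0.673 to 0.738) and H2-D1 at 1497 and 2020 CPM (0.741, 0.696 to 0.789). Nlrc5 was at 176 CPM in DPCP (361 UMIs) and 339 CPM in control cells (245 UMIs), a ratio of 0.519 (0.440 to 0.613). Thus 2 of 10 genes were lower by 1.5-fold, against 10.7% of 6288 genes, and 0 higher, against 21.1%. Psmb8 was above its control level, at 630 CPM in DPCP and 546 CPM in control cells (1.15, 1.03 to 1.30), and Tap2 (1.11, 0.911 to 1.35) had an interval that includes 1. The median log2 ratio was -0.22, and 0.08 for all genes. In the same class Ciita was at 103 CPM in DPCP and 49.8 CPM in control cells (2.08, 1.45 to 3.04). By the limit set on control cells, neutrophil RNA was in 19.7% of DPCP and 0% of control cells of this class. Without the cells that held it, the Nlrc5 log2 ratio was -0.88 beside -0.95.

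Gamma-delta T cell-like cells had 1 gene higher by 1.5-fold, against 13.6% of 9025 genes, and 0 lower, against 11.6%. Nlrc5 was at 127 CPM in DPCP and 58.7 CPM in control cells (2.16, 1.76 to 2.68), and without the cells that held neutrophil RNA its log2 ratio was 1.10 beside 1.11. The transporter and tapasin were next: Tapbp at 323 CPM in DPCP and 222 CPM in control cells (1.45, 1.30 to 1.63), Tap2 at 100 and 69.5 CPM (1.44, 1.17 to 1.77) and Tap1 at 98.5 and 71.0 CPM (1.39, 1.13 to 1.71). H2-K1 (0.976), B2m (1.03) and the 3 proteasome subunits (0.982 to 1.01) had intervals that include 1. The median log2 ratio was 0.11, and 0.02 for all genes.

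Macrophage-like cells had 1 gene higher by 1.5-fold, against 8.23% of 8943 genes, and 0 lower, against 8.03%. This was Nlrc5, at 87.6 CPM in DPCP and 58.2 CPM in control cells (1.51, 1.252 to 1.81), just past the fold and short of it (log2 0.46 to 0.58) in 8 alternatives beside coarser clusters. The heavy chains and B2m were slightly lower in DPCP, at ratios of 0.884 for H2-K1, 0.934 for H2-D1 and 0.948 for B2m. Over the alternatives the log2 ratio ran from -0.97 to 0.07 for H2-K1 and from -0.6 to 0.22 for H2-D1, so neither sign was stable. Tap2 was at 49.1 CPM in DPCP and 68.9 CPM in control cells (0.713, 0.578 to 0.877), and Psmb10 at 105 and 84.1 CPM (1.247, 1.06 to 1.46). With cells chosen by their own marker UMIs the log2 ratios of both had the other sign, at 0.16 for Tap2 and -0.18 for Psmb10. The class leaves out cluster 6, which held 5 macrophage markers but was led by Ly6c2, Ifi44 and Siglec1 and had 42 DPCP and 756 control cells. In cluster 6, whose control H2-K1 and B2m were above those of every class compared, H2-K1 was at 1150 CPM in DPCP and 2731 CPM in control cells (0.421, 0.381 to 0.464) and B2m at 2169 and 4278 CPM (0.507, 0.472 to 0.544). Coarser clusters (resolution 0.5) gave a macrophage-like class of 233 DPCP and 932 control cells, with a median log2 ratio of -0.61 in place of -0.04 and Nlrc5 at -0.08.

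Conventional dendritic cell type 2-like cells, which carry Cd209a and Mgl2, had 0 of 10 genes higher by 1.5-fold, against 9.61% of 9298 genes, and 0 lower, against 12.6%. H2-D1 was at 1057 CPM in DPCP and 1376 CPM in control cells (0.768, 0.730 to 0.808), H2-K1 at 795 and 1005 CPM (0.791, 0.746 to 0.838) and Nlrc5 at 76.7 and 55.8 CPM (1.37, 1.12 to 1.68). The lower heavy chains were not seen under every alternative: without the cell filter the log2 ratio was 0.01 for H2-K1 and 0.02 for H2-D1, against -0.34 and -0.38, and with cells chosen by their own marker UMIs it was 0.02 for H2-K1. Cluster 13 likewise had 0 of 10 higher, against 10.3% of 7896 genes, and 0 lower, against 9.71%, and its Nlrc5 was at 141 CPM in DPCP and 131 CPM in control cells (1.08, 0.888 to 1.31). In cluster 0, Nlrc5 was at 60.4 CPM in DPCP and 35.1 CPM in control cells (1.72, 1.36 to 2.15; log2 0.49 as a mean over cells), the 1 gene higher, against 7.68% of 10580 genes, with 0 lower, against 10.3%. In cluster 11 it was at 36.6 CPM on 13 UMIs in DPCP and 23.6 CPM on 69 UMIs in control cells (1.55, 0.786 to 2.83; log2 0.51 with TMM scaling), again the 1 gene higher, against 11.3% of 6638 genes, with 0 lower, against 11.9%. The DPCP cells of cluster 11 were shallow, with a median of 1380.0 UMIs, against 7766.0 in its control cells. Of its 62 DPCP cells, 24 had under 1000 UMIs. In cluster 14, Nlrc5 was at 63.9 CPM in DPCP and 110 CPM in control cells (0.580, 0.390 to 0.859) and Tap2 at 58.6 and 101 CPM (0.580, 0.383 to 0.875). These were the 2 genes lower there, against 7.87% of 4424 genes, with 0 higher, against 6.51%.

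The balance of inducible to constitutive catalytic subunits was read from UMIs of Psmb8, Psmb9 and Psmb10 as a percentage of these plus Psmb5, Psmb6 and Psmb7, a share that does not depend on the CPM total. It was lower in DPCP in 6 of the 7 named classes. In Langerhans cell-like cells it was 37.0% in DPCP (34.5 to 39.5) and 48.4% in control cells (42.9 to 53.8), the lowest share of any class in both conditions. In neutrophil-like cells it was 60.8% in DPCP (59.5 to 62.1) and 74.2% in control cells (64.3 to 82.6, on 97 UMIs), but within cluster 2, which held most of the control cells, it was 68.0% (64.9 to 71.0) and 75.8% (65.7 to 84.2), with intervals that overlap. Conventional dendritic cell type 2-like cells had 61.3% in DPCP (58.3 to 64.2) and 66.7% in control cells (65.3 to 68.2). Mature dendritic cell-like cells had 71.6% in DPCP (69.9 to 73.3) and 75.5% in control cells (72.6 to 78.3), with intervals that overlap. In monocyte-like, gamma-delta T cell-like and macrophage-like cells the intervals of the conditions overlapped. Cluster 0 was higher in DPCP, with 63.2% in DPCP (59.2 to 66.9) and 57.8% in control cells (56.8 to 58.8). Within the 6 classes with a lower share, single pairs did not all go the same way. Psmb10 as a share of Psmb10 and Psmb7 was 33.1% in DPCP and 29.1% in control Langerhans cell-like cells. It was 59.6% and 57.9% in conventional dendritic cell type 2-like cells. Psmb9 as a share of Psmb9 and Psmb6 was 47.9% and 45.7% in gamma-delta T cell-like cells. The intervals of these pairs overlapped between conditions.

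In Langerhans cell-like cells the lower share came with higher constitutive subunits. Psmb5 was at 201 CPM in DPCP and 84.8 CPM in control cells (2.37, 1.78 to 3.22) and Psmb6 at 182 and 94.2 CPM (1.93, 1.46 to 2.58), while the intervals of Psmb8 and Psmb9 include 1. Of the other 20S core subunits, 9 of 11 were higher by 1.5-fold (against 25.3% of all genes) and 0 lower, with a median log2 ratio of 0.75, and the highest was Psma3 at 250 CPM in DPCP and 105 CPM in control cells (2.37, 1.83 to 3.12). Psme2, a subunit of the PA28 proteasome activator, was at 172 CPM in DPCP and 58.1 CPM in control cells (2.97, 2.11 to 4.29). In the cells with few C1q UMIs, Psmb5 was at 296 CPM in DPCP and 79.1 CPM in control cells (3.74, 2.57 to 5.57) and Psme2 at 115 and 47.5 CPM (2.42, 1.44 to 4.21). No other named class had more than 1 of the 11 core subunits higher.

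**Figure D5:**
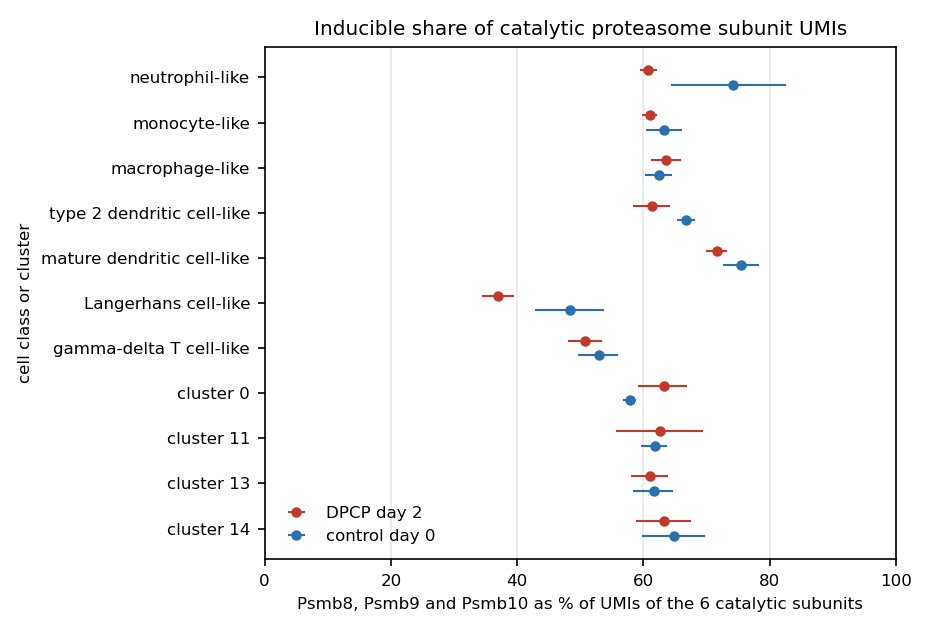
UMIs of Psmb8, Psmb9 and Psmb10 as a percentage of the UMIs of 6 catalytic proteasome subunits, per class or cluster, DPCP (red) above control (blue), with 95% binomial intervals. Langerhans cell-like cells have the lowest share in both conditions (37.0% in DPCP, 48.4% in control), and cluster 0 is higher in DPCP (63.2% against 57.8%).

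Among known regulators of class I, Irf1, an interferon-induced transcription factor, was at 66.5 CPM in DPCP and 29.8 CPM in control Langerhans cell-like cells (2.23, 1.37 to 3.83) and at 116 and 54.9 CPM in gamma-delta T cell-like cells (2.12, 1.71 to 2.65). Of the whole list of regulators, 3 of 10 measured genes were higher by 1.5-fold in Langerhans cell-like cells (against 25.3% of all genes). In gamma-delta T cell-like cells 2 of 10 were higher (against 13.6%). In both classes 0 were lower (against 17.5% and 11.6%), and the median log2 ratios were 0.01 and 0.20. Of the interferon-gamma response list, 5 of 7 genes were higher by 1.5-fold in gamma-delta T cell-like cells (against 13.6% of all genes) and 0 lower (median log2 ratio 1.11), among them Gbp2, a guanylate-binding protein, at 219 CPM in DPCP and 33.1 CPM in control (6.61, 5.15 to 8.60). In neutrophil-like cells 5 of 8 were higher (against 18.0%) and 1 lower (median 1.35), with Gbp2 at 253 CPM in DPCP and 10.4 CPM in control on 3 control UMIs (24.2, 8.27 to 117). Most control cells of this class were in cluster 2, and the lists were not compared within that cluster. In Langerhans cell-like cells 3 of 3 genes of the interferon-gamma list were higher (against 25.3%), with a median of 1.09. In conventional dendritic cell type 2-like cells 2 of 7 were higher (against 9.61%) and 2 lower (against 12.6%). In macrophage-like cells 2 of 9 were higher (against 8.23%) and 1 lower (against 8.03%). Monocyte-like and mature dendritic cell-like cells each had 1 of 5 higher (against 10.4% and 21.1%) and 1 lower (against 11.1% and 10.7%). The type I interferon response list had 0 higher and 9 of 10 lower in both monocyte-like (median -1.64, against 11.1% of all genes) and macrophage-like cells (median -1.13, against 8.03%). In Langerhans cell-like cells 2 of 3 were higher (against 25.3%) and 0 lower (against 17.5%), with a median of 1.52 over these 3 genes. In neutrophil-like cells 3 of 9 were higher (against 18.0%) and 3 lower (against 36.6%), with a median of -0.33. The share lower there was no larger than that of all genes. Ifi44 in monocyte-like cells was at 1.22 CPM in DPCP and 48.1 CPM in control (0.0253, 0.0121 to 0.0477).

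The interferon receptor genes in Langerhans cell-like cells included Ifnar1 at 162 CPM in DPCP and 40.8 CPM in control (3.97, 2.66 to 6.18) and Ifnar2 at 206 and 64.4 CPM (3.21, 2.32 to 4.54), with 4 of 9 genes of that list higher (against 25.3% of all genes), 1 lower and a median log2 ratio of 0.32. In the list of the loading complex and peptide trimming, 1 of 5 was higher in this class (median 0.37), no larger a share than the 25.3% of all genes. It was Tapbpl, a tapasin-related peptide editor, at 27.6 CPM in DPCP and 1.57 CPM in control on 1 control UMI (17.6, 3.01 to 707). Calr, the chaperone calreticulin, was at 209 CPM in DPCP and 343 CPM in control gamma-delta T cell-like cells (0.608, 0.544 to 0.680).

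The list of other class I heavy chains was mostly lower in DPCP in 5 of the 7 named classes. In neutrophil-like cells 8 of 9 measured were lower by 1.5-fold (against 36.6% of all genes) and 0 higher (median log2 ratio -0.88), with H2-Q7 at 21.4 CPM in DPCP and 167 CPM in control (0.128, 0.0949 to 0.176). In monocyte-like cells 6 of 7 were lower (median -0.93, against 11.1%), with H2-Q7 at 14.4 CPM in DPCP and 85.3 CPM in control (0.168, 0.132 to 0.215). In macrophage-like cells 4 of 7 were lower (median -0.67, against 8.03%), in mature dendritic cell-like 5 of 8 (median -0.59, against 10.7%) and in conventional dendritic cell type 2-like cells 5 of 8 (median -0.67, against 12.6%), each with 0 higher. Gamma-delta T cell-like cells differed, with 4 of 7 higher (against 13.6%) and 0 lower (median 0.92). There H2-Q4 was at 117 CPM in DPCP and 59.1 CPM in control (1.97, 1.6 to 2.45), and H2-Q10, which neutrophil-like cells carry at 185 CPM in DPCP and 418 CPM in control, was at 32.0 and 4.73 CPM (6.76, 3.50 to 14.6), beside the neutrophil RNA noted above. H2-Q genes are close copies of each other, and so their values are uncertain where reads could be split between copies, a step the labels do not describe. In Langerhans cell-like cells 2 of 6 were lower (median -0.33, against 17.5%), and H2-M2 was at 500 CPM in DPCP and 846 CPM in control (0.591, 0.531 to 0.659).

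H2-K1 made up less of the summed UMIs of H2-K1 and H2-D1 in DPCP in 6 of the 7 named classes, though intervals overlapped in Langerhans cell-like and macrophage-like cells and met in neutrophil-like cells. Its share was 39.6% in DPCP and 45.2% in control over all kept cells, 38.5% (37.8 to 39.2) and 43.7% (42.2 to 45.1) in monocyte-like, 46.8% (45.5 to 48.1) and 51.4% (49.6 to 53.2) in mature dendritic cell-like and 43.6% (42.4 to 44.8) and 47.2% (45.8 to 48.6) in gamma-delta T cell-like cells. In conventional dendritic cell type 2-like cells it was 42.9% (41.2 to 44.7) in DPCP and 42.2% (41.5 to 43.0) in control, with intervals that overlap.

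Cells were also compared after thinning each to 1000 UMIs, since depth per cell differed. No class here is known to lack class I genes, so no background share could be set. After thinning, 50.8% of DPCP (41.7 to 59.9) and 29.1% of control (17.6 to 42.9) Langerhans cell-like cells had a UMI of H2-K1, against 99.2% and 94.5% before. In neutrophil-like cells the shares were 42.7% in DPCP (41.3 to 44.1) and 63.7% in control (53.6 to 73.0), and 80.8% and 87.0% before, with 159 DPCP and 6 control cells left out as too shallow. Nlrc5 was seen in 12.4% of DPCP (7.11 to 19.6) and 32.8% of control (21 to 46.3) mature dendritic cell-like cells, and in 14.4% of DPCP (10.6 to 18.9) and 5.02% of control (2.53 to 8.81) gamma-delta T cell-like cells. These 4 directions were those of the CPM ratios. Thinned to 2000 UMIs, they were the same, but intervals overlapped for H2-K1 in Langerhans cell-like cells, at 63.4% in DPCP (54.3 to 71.9) and 59.3% in control (45 to 72.4), and for Nlrc5 in gamma-delta T cell-like cells, at 20.7% (16.1 to 25.9) and 13.9% (9.46 to 19.5). They stayed apart for H2-K1 in neutrophil-like cells, at 64.3% in DPCP (62.8 to 65.7) and 82.2% in control (71.5 to 90.2), and for Nlrc5 in mature dendritic cell-like cells, at 22.5% (15.4 to 31) and 46.4% (33 to 60.3). Other thinned shares had the direction opposite to the CPM ratio, 39 of the 120 over all genes, classes, clusters and all kept cells, and no order is read from them. Among these were Psmb8 in Langerhans cell-like cells (10.5% in DPCP and 23.6% in control) and Nlrc5 in conventional dendritic cell type 2-like cells (2.82% and 5.78%).

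Across the 22 class-by-condition sums, the 8 genes whose log2 CPM profile was most like the mean profile of the 4 members measured in all of them (B2m, Tapbp, H2-K1 and H2-D1) were Ostf1 (Pearson r = 0.755), Tpm4, Samsn1, Actr3, Tmsb4x, Cd47, Rab8b and H2-T23 (0.557), among 490 genes. The sums share 1 library and the 2 tagged samples, and the values describe likeness of level only. H2-T23 was the 1 class I heavy chain among them.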

How the data were processed

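The authors deposited raw UMI counts for 32285 genes in 14146 barcodes. Per the file headers the matrix came from Cell Ranger 7.0.0, but the submitters' processing notes name Cell Ranger 6.1.1, with Seurat 4.0.1 and mm10. The sources used here do not state whether intronic reads were counted. Each barcode's condition came from its suffix and the deposited aggregation table. The members, lists, markers and alternatives were chosen with earlier results of these data known.

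Barcodes needed 200 genes or more and no more than 10% of UMIs from mitochondrial genes. Scrublet, in scanpy 1.11.5, called 0 DPCP and 3 control cells as doublets, too few for a working caller. Clustering used 2000 variable genes without the members and lists, 30 principal components, 15 neighbours and leidenalg 0.10.2 at resolution 1. A name needed at least 3 markers, each in at least 10% of a cluster's cells and 2-fold above the rest. A cluster stayed unnamed where its leading genes held more markers of another class, where as large a part of another class's marker list passed (T cell markers did not count against gamma-delta T cells), or where S100a8 and S100a9 passed 20% of the neutrophil-like level; how these were applied was set after seeing the data. Levels are CPM of the UMIs added up over a class in a condition. Their 95% intervals are exact Poisson, those of ratios conditional binomial and those of shares Clopper-Pearson. The genes named are the 10 members and, per list and class, at most the 2 highest and 2 lowest ratios with at least 50 summed UMIs. Markers, H2-Q10 in neutrophil-like cells, Ptprc and the genes in cells with few C1q UMIs were named after their values were seen. Of the list symbols, 2 matched no gene. The calculations were tested on simulated data. Python 3.11.15, numpy 2.4.6, scipy 1.17.1 and, for TMM scaling alone, edgeR 4.0.16 in R 4.3.3 were used. The closing section gives the alternatives. Some items are not reported here.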

Additional observations from a re-analysis of the deposited data

Results flagged for a closer look

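Some genes were higher by 1.5-fold in DPCP in one class and lower by that fold in another, and these differences between classes were not tested, since each condition was 1 tagged sample. The ratio DPCP over control of Nlrc5 was 4.89 in Langerhans cell-like, 2.16 in gamma-delta T cell-like, 1.75 in neutrophil-like and 1.51 in macrophage-like cells, 1.72 in cluster 0 and 1.55 in cluster 11, but 0.519 in mature dendritic cell-like cells and 0.580 in cluster 14. H2-D1 was at 1.65 in Langerhans cell-like and 0.542 in neutrophil-like cells. Tap2 was at 2.74 in Langerhans cell-like cells and 0.580 in cluster 14. The multiplexing tags held 13.9% of UMIs from the other condition's tag in DPCP barcodes, against 2.18% in control barcodes. Keeping only barcodes with at least 80% of tag UMIs from their own tag left 97 of 296 DPCP gamma-delta T cell-like and 2850 of 4901 DPCP neutrophil-like cells, with median log2 ratios of 0.22 beside 0.11 and of -0.35 beside -0.39.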

How the results depend on the processing

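No paired analysis was possible because each condition was 1 tagged sample and no result comes from a test. Of 174 recomputed class medians and counts, 162 stayed within the main counting range or within 1.5 times the main count and 12 moved. Of 1120 recomputed single ratios, 981 stayed, 136 moved and 3 reversed. Only ratios past 1.5-fold in the main setting could count as reversed, and smaller ratios changed sign too. Tap2 in macrophage-like cells went from a log2 ratio of -0.49 to 0.16 with cells chosen by their own marker UMIs. Tap1 in Langerhans cell-like cells went from 0.24 to -0.93 with at most 3 C1q UMIs. Removing the 5% of cells with the highest doublet scores gave medians (log2) of 0.82 in Langerhans cell-like and 0.42 in gamma-delta T cell-like cells, against 0.58 and 0.11, and 13 genes higher, summed over classes, against 8. The stricter filter gave 0.03 in gamma-delta T cell-like cells. In macrophage-like cells resolution 0.5 gave -0.61 and a gate on each cell's markers -0.24, against -0.04. The count higher was 5 with at least 200 summed UMIs, 14 at the looser fold and 4 at a fold of 2; the count lower, 6, was 14 at resolution 0.5, 17 at the looser fold and 2 at a fold of 2. The reversed ratios (log2) were Nlrc5 in macrophage-like cells (-0.08, resolution 0.5), Nlrc5 in neutrophil-like cells (-0.83, without clusters of under 20 cells in a condition) and Psmb10 in Langerhans cell-like cells (-0.30, at most 3 C1q UMIs, added after seeing the data). The cause was not tested. With TMM scaling the neutrophil-like median was -0.04. Langerhans cell-like medians ranged from 0.33 to 0.82, monocyte-like from -0.35 to -0.11 and mature dendritic cell-like from -0.28 to -0.14 over all alternatives run there. The marker gate held too few Langerhans cell-like cells for a value. Control UMIs were few for Nlrc5 in Langerhans cell-like (10) and neutrophil-like cells (16) and for Psmb10 in neutrophil-like cells (7).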

Other observations

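Of the clusters too small in a condition for comparison, cluster 17 (126 DPCP and 0 control cells, led by Mmp12, Cxcl5 and Gpnmb) had H2-K1 at 1183 CPM, B2m at 2620 CPM and Nlrc5 at 89.9 CPM. Conventional dendritic cell type 1-like cells, a subset known for presenting engulfed antigen on class I (25 DPCP and 45 control cells), had Psmb8 at 615 CPM in DPCP and 455 CPM in control (1.35, 1.12 to 1.64), Psmb9 at 437 and 307 CPM (1.42, 1.12 to 1.80) and Tap1 at 249 and 150 CPM (1.66, 1.20 to 2.33), while H2-K1 was at 494 and 646 CPM (0.766, 0.636 to 0.921) and Psmb10 at 91.3 and 127 CPM (0.722, 0.465 to 1.11). Their inducible share of catalytic proteasome UMIs was 73.2% in DPCP (69.7 to 76.4) and 79.1% in control (75 to 82.8), with intervals that overlap. Plasmacytoid dendritic cell-like cells (49 and 23) had Nlrc5 at 55.0 CPM in DPCP and 101 CPM in control (0.548, 0.316 to 0.954). Cluster 12 (284 and 23 cells) passed the same 3 monocyte markers as the monocyte-like class but carried neutrophil RNA and stayed unnamed. There H2-K1 was at 741 CPM in DPCP and 719 CPM in control (1.03, 0.889 to 1.20), H2-D1 at 1272 and 1297 CPM (0.981, 0.878 to 1.10) and B2m at 1807 and 1604 CPM (1.13, 1.02 to 1.247), beside ratios of 0.570, 0.706 and 0.750 in monocyte-like cells. The CD8 co-receptor genes, whose product binds class I, were higher in cluster 13: Cd8a at 72.4 CPM in DPCP and 42.0 CPM in control (1.72, 1.26 to 2.37) and Cd8b1 at 63.6 and 36.7 CPM (1.74, 1.24 to 2.44). By 1.5-fold, 10.3% of 7896 genes were higher in that cluster. It held T cell and natural killer cell markers alike, and whether its make-up differed between conditions was not tested. By the limit set on control cells, 23.8% of its DPCP and 0% of its control cells held neutrophil RNA.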
